A study of Homo sapiens with 4 samples.

Results

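The RAS-MAPK cascade switches on genes that restrain it. SK-N-BE(2) neuroblastoma cells carrying a short hairpin RNA (shRNA) against SAPCD2 were compared with cells carrying a scrambled shRNA. Most of 10 chosen outputs and inhibitors of the cascade stood higher with the shRNA against SAPCD2. The 10 genes described here are the MAP kinase phosphatases DUSP4, DUSP5 and DUSP6, the Sprouty genes SPRY1, SPRY2 and SPRY4, the Sprouty-related genes SPRED1 and SPRED2, and the transcription factor genes ETV4 and ETV5. They are known outputs and inhibitors of the cascade, and were found by matching GENCODE symbols to the Ensembl identifiers of the count table. They are 10 of 64252 genes in the table and 10 of the 18779 genes with enough counts to be tested, and each of the 10 reached the count minimum in both groups.

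SK-N-BE(2) is an established human neuroblastoma line with amplified MYCN. The study asked what the loss of SAPCD2, a protein known for its part in orienting the mitotic spindle, does to neuroblastoma cells. RNA was sequenced from 2 libraries labelled as transfected with scramble shRNA (sh-Scb) and 2 labelled sh-SAPCD2. The methods describe lentiviral delivery and puromycin selection for the stable lines, so both groups carry an shRNA vector. No further treatment is labelled, and both groups come from 1 cell line. The labels do not say whether the 2 libraries of a group came from separate cultures, so the p-values measure the spread between these libraries, which may be technical.

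When a growth factor receptor activates RAS, the kinases RAF, MEK and ERK are switched on in turn, and ERK changes the activity of transcription factors. The output includes its own brakes. DUSP proteins remove phosphate from ERK and related kinases, Sprouty proteins act between the receptor and RAS or RAF, and SPRED proteins bring neurofibromin (NF1), which switches RAS off, to the membrane. ETV4 and ETV5 are ETS transcription factors of the PEA3 group whose genes respond to fibroblast growth factor and ERK signalling. The repressor CIC, which ERK inactivates, sits on many of these genes. Levels of such transcripts are often read as a record of ERK output, but no kinase activity or protein was measured here.

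The libraries held 25347900 to 31850997 counts over genes. Across genes the libraries of a group correlated at 0.986 (sh-Scb) and 0.98 (sh-SAPCD2), against 0.954 to 0.961 between groups. SAPCD2 itself stood at 83.6 and 82.2 CPM (counts scaled to the size of each library) in the sh-Scb libraries, and at 35.4 and 52.5 CPM in the sh-SAPCD2 libraries. The groups did not overlap, and the sh-SAPCD2 libraries kept 42.7% and 63.3% of the control mean (log2 fold change −0.91, standard error 0.193, adjusted p = 0.0206 by edgeR's quasi-likelihood test). By these values the knockdown was partial and unequal between its 2 libraries. Its size depended on the processing, as the log2 fold change was −1.32 after a correction for GC content and length. The labels do not number the hairpin, while the study's heatmap of these libraries names sh-SAPCD2 #1. Its target and its guide strand are shown because the guide's seed, in capitals (bases 2 to 8), is searched for in the feedback genes further on. The target lies in exon 6 of SAPCD2, in the coding sequence, at chr9:137064663-137064683 on the minus strand of hg38.
target in SAPCD2: acctctggattccaccttcat
guide strand: aTGAAGGTggaatccagaggt

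Of the 10 genes, 7 were higher in the sh-SAPCD2 libraries and 0 were lower at an adjusted p under 0.05, and 3 did not pass. Among all tested genes 12.4% were higher and 12.5% lower by the same call. The 10 genes were chosen with earlier results of these data known, so this contrast is not independent of them. The median log2 fold change of the 10 genes was 0.62, beside 0.02 over all tested genes. SPRY4, SPRY2 and DUSP4 also exceeded a log2 fold change of 1, the study's threshold for a differentially expressed gene (DEG), which 4.69% of all tested genes did in this direction. ETV4, SPRED1, ETV5 and SPRED2 were higher by less. SPRY1, DUSP5 and DUSP6 did not pass. In 8 of the 10 genes, SPRY1 included, every sh-SAPCD2 library stood above every sh-Scb library, a pattern seen in 33.5% of all tested genes. With 1 library left out, the spread came from the other group alone, so calls in such fits are not comparable with those reported. The calls of SPRED1, SPRED2 and ETV5 were lost without either one of the 2 sh-Scb libraries. Log2 fold changes of the 7 genes with 1 library left out ran from 0.29 (SPRED2) to 1.43 (SPRY4). These are bulk libraries, in which fewer cells of a type and less RNA per cell cannot be told apart.

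**Figure D1:**
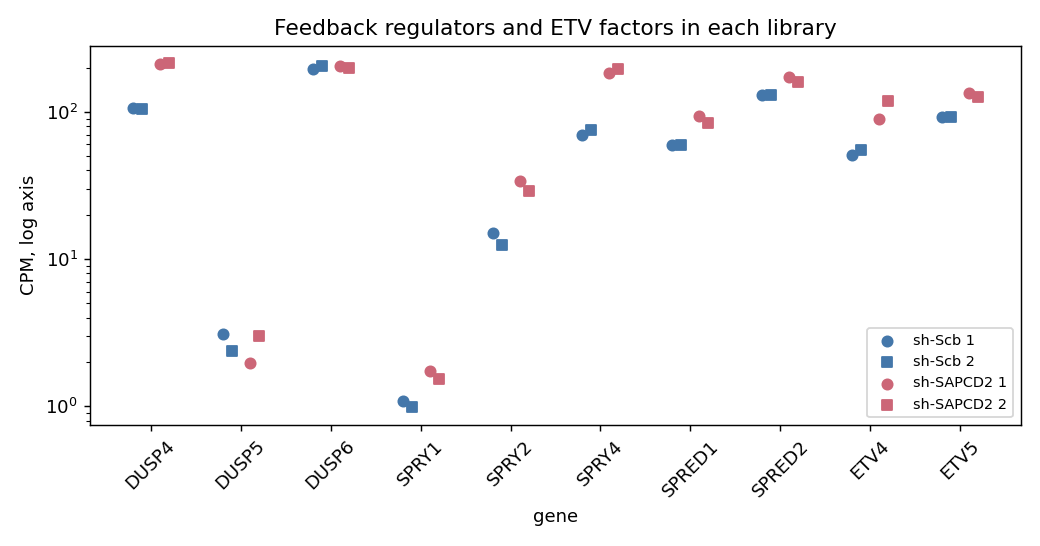
Level of each of the 10 genes in each of the 4 libraries, in CPM on a log axis, with sh-Scb in blue and sh-SAPCD2 in red (circles replicate 1, squares replicate 2). Red symbols stand above both blue symbols for all genes except DUSP5 and DUSP6, where the groups overlap.

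The 3 phosphatase genes did not move together. DUSP4 (chr8:29333064-29350684), whose product works on ERK in the nucleus, stood at 105.4 and 105.1 CPM in the sh-Scb libraries and at 212.2 and 214.1 CPM in the sh-SAPCD2 libraries. Both groups were tight and far apart, a 2.03-fold rise (95% interval 1.73 to 2.37, log2 fold change 1.02, standard error 0.094, adjusted p = 0.00298). That value lies close to the DEG threshold, and under scaling to library totals (1.00) or a correction for GC content and length (0.995) DUSP4 was higher but no longer a DEG. DUSP6 (chr12:89347235-89352501), the cytoplasmic ERK phosphatase and a gene widely used as a readout of ERK activity, stood at 196.0 and 204.4 CPM in the sh-Scb libraries and at 205.2 and 199.2 CPM in the sh-SAPCD2 libraries. The groups overlapped, with a log2 fold change of 0.01 and a 95% interval of −0.21 to 0.24 (adjusted p = 0.925). It rested on 5195 to 6257 counts per library, and a rise as large as that of DUSP4 lies outside this interval. DUSP5 (chr10:110497907-110511533), a nuclear phosphatase for ERK, was low. Its levels were 3.08 and 2.36 CPM in the sh-Scb libraries and 1.98 and 2.99 CPM in the sh-SAPCD2 libraries, from 50 to 94 counts. The groups overlapped, and the interval of the log2 fold change ran from −0.88 to 0.63 (adjusted p = 0.801), so that a moderate change in either direction was not detectable at this depth. DUSP6 overlaps a long non-coding RNA gene on the opposite strand that held 50 to 171 counts.

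The Sprouty genes held the 2 largest rises among the 10. SPRY4 (chr5:142310427-142326455), an inhibitor of receptor signalling to RAS, stood at 70.1 and 74.9 CPM in the sh-Scb libraries and at 183.8 and 194.0 CPM in the sh-SAPCD2 libraries. The highest sh-Scb library lay far below the lowest sh-SAPCD2 library, a 2.61-fold rise (95% interval 2.19 to 3.10, log2 fold change 1.38, standard error 0.103, adjusted p = 0.00203). SPRY2 (chr13:80335976-80341126), the Sprouty protein that also binds the ubiquitin ligase CBL, stood at 15.1 and 12.4 CPM in the sh-Scb libraries and at 33.9 and 29.0 CPM in the sh-SAPCD2 libraries. It rose 2.29-fold (95% interval 1.73 to 3.03, log2 fold change 1.20, standard error 0.166, adjusted p = 0.0063). Relative to the mean, its spread within each group was larger than that of SPRY4. SPRY1 (chr4:123396795-123403760), the family member known for limiting RET signalling in the developing kidney, was near the limit of what these libraries resolve. It stood at 1.09 and 0.98 CPM in the sh-Scb libraries and at 1.74 and 1.53 CPM in the sh-SAPCD2 libraries. Those levels rest on 27 to 48 counts, against a detection floor of 3 counts, or 0.0955 to 0.119 CPM, which covers counting error only. The groups did not overlap, yet the gene did not pass the test (log2 fold change 0.66, 95% interval −0.11 to 1.42, adjusted p = 0.179), and an interval this wide holds both no change and the rise of SPRY2.

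Both SPRED genes were higher, by less than SPRY4 and SPRY2. SPRED1 (chr15:38252836-38357249), whose loss in people causes a syndrome resembling neurofibromatosis, stood at 59.2 and 59.4 CPM in the sh-Scb libraries and at 93.5 and 83.6 CPM in the sh-SAPCD2 libraries. It rose 1.49-fold (95% interval 1.24 to 1.80, log2 fold change 0.58, standard error 0.112, adjusted p = 0.0162). SPRED2 (chr2:65310851-65432637), which likewise binds neurofibromin, stood at 130.2 and 130.5 CPM in the sh-Scb libraries and at 171.2 and 160.5 CPM in the sh-SAPCD2 libraries. This was a 1.27-fold rise (95% interval 1.08 to 1.5, log2 fold change 0.35, standard error 0.097, adjusted p = 0.0468), the smallest of the 7. The 2 sh-Scb libraries agreed closely for both genes, and the groups did not overlap. Without sh-Scb library 1 the adjusted p was 0.209 for SPRED1 and 0.503 for SPRED2, and without sh-Scb library 2 it was 0.204 and 0.499, with folds that moved little. SPRED2 also lost its call under DESeq2's size factors (adjusted p = 0.0511), library totals (0.061) and no filter on low counts (0.0948).

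ETV4 and ETV5 were both higher, and ETV4 was the most variable of the 7 between the sh-SAPCD2 libraries. ETV4 (chr17:43527844-43579620) stood at 50.8 and 55.1 CPM in the sh-Scb libraries and at 90.0 and 119.0 CPM in the sh-SAPCD2 libraries. The groups did not overlap, and the gene rose 1.98-fold (95% interval 1.51 to 2.58, log2 fold change 0.98, standard error 0.158, adjusted p = 0.00965). The log2 fold change was 0.78 after a correction for GC content and length. It was 1.16 without sh-SAPCD2 library 1 and 0.77 without sh-SAPCD2 library 2. In the annotation the ETV4 gene overlaps DHX8, an RNA helicase gene on the other strand, over 51777 bases. Whether the counting used strand is not given in the sources used here, so reads of the pair may not be separable. DHX8 went the other way, from 2698 and 2642 counts to 1848 and 2159 counts (log2 fold change −0.45, adjusted p = 0.0262). ETV5 (chr3:186046314-186110318) stood at 91.8 and 92.5 CPM in the sh-Scb libraries and at 134.0 and 126.5 CPM in the sh-SAPCD2 libraries. It rose 1.41-fold (95% interval 1.20 to 1.67, log2 fold change 0.50, standard error 0.099, adjusted p = 0.0173), and without sh-Scb library 1 or 2 the adjusted p was 0.293 or 0.28. It overlaps DGKG on the same strand, a gene with only 37 to 82 counts. The third gene of the PEA3 group, ETV1, fell. Its mean was 96.9 ± 7.76 CPM with sh-Scb and 46.9 ± 7.8 CPM with sh-SAPCD2 (SD over 2 libraries each). The log2 fold change was −1.05 (adjusted p = 0.00691), so that the 3 closely related factors did not share a direction.

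**Figure D2:**
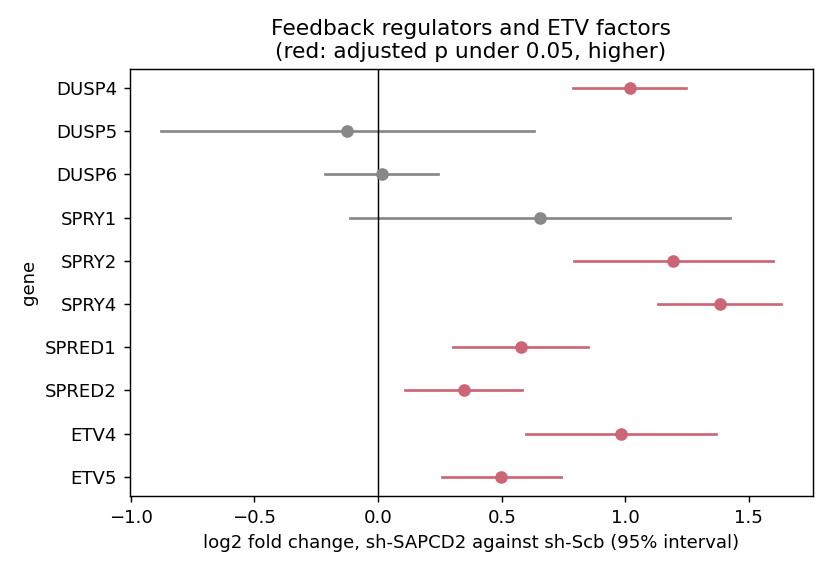
Log2 fold change of the 10 genes, sh-SAPCD2 against sh-Scb, with the 95% interval as a bar (red: adjusted p under 0.05). The intervals of DUSP5, DUSP6 and SPRY1 cross 0, and those of the other 7 genes lie above it, from SPRED2 at 0.35 to SPRY4 at 1.38.

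Per kilobase of the annotated transcript, DUSP6 was the most abundant of the 10 in both groups, at 55.2 CPM per kilobase in the mean of the sh-Scb libraries and 55.8 in that of the sh-SAPCD2 libraries. The next level in the sh-Scb libraries was that of SPRED2 at 28.8, followed by ETV4 at 22.7 and ETV5 at 22.6, a pair closer than the spread of ETV4 between libraries. DUSP4 at 18.9, SPRY4 at 14.8, SPRED1 at 8.16 and SPRY2 at 6.0 came after them. DUSP5 at 1.10 and SPRY1 at 0.397 were lowest. In the sh-SAPCD2 libraries SPRY4 (38.5) and DUSP4 (38.4) stood above SPRED2 (36.7) and ETV5 (31.9), with ETV4 at 44.8. SPRY4 and DUSP4 lay closer to each other than the libraries of SPRY4 did. The most abundant of the 10 was therefore a gene that did not pass the test.

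Since CIC and ETS factors are known regulators of these genes, the 250 bases before each RefSeq start site (GRCh38.p14) were searched on both strands for 4 kinds of letters. RefSeq entries were matched for 6 of the 10 genes, in 10 windows, and not for DUSP4, DUSP5, ETV4 and ETV5. The CIC octamers searched were TGAATGAA, TGAATGGA, TCAATGAA and TCAATGGA. One such octamer stood in 1 of the 10 windows, that of DUSP6, at −24 from the start, and 3.18% of 35116 promoter windows of the same length hold one. The ETS letters CCGGAA were in 2 windows, of SPRY1 and SPRY2 (14.5% of all windows), and the ETS letters AGGAAG, which share the core GGAA with them, in 8 windows of 5 genes (28.7% of all). The AP-1 letters TGANTCA were in 0 of the 10 windows (6.57% of all), and the SPRY4 window held none of the 4. The 3 windows below are shown because they set a gene that did not pass the test, DUSP6, beside a gene that rose strongly, SPRY2, and one that rose less, SPRED1. Capitals mark the letters found, on either strand, and each window ends at the base before the start site. The windows lie at chr12:89352502-89352751 (minus strand), chr13:80341127-80341376 (minus strand) and chr15:38252586-38252835 (plus strand).
DUSP6: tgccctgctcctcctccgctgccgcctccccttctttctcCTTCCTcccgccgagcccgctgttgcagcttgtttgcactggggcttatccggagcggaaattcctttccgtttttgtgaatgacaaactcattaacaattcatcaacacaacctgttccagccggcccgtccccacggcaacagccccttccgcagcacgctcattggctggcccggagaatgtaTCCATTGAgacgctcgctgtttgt
SPRY2: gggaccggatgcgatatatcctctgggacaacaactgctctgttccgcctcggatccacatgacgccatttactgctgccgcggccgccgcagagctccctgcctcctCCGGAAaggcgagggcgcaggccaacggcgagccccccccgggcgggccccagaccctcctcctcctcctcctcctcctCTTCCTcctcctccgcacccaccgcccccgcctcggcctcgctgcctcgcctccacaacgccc
SPRED1: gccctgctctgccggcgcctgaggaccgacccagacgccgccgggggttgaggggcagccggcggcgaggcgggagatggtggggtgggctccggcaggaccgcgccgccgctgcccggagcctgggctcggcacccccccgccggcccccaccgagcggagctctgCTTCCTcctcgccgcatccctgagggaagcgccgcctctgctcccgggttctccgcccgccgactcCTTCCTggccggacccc

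The windows of DUSP6 and of the 2 genes that rose all held AGGAAG in one orientation or the other. The SPRY2 window shown also held CCGGAA at −142, which the other SPRY2 windows did not, and SPRED1 held AGGAAG in 2 places. The DUSP6 window overlaps a non-coding RNA gene, and all 250 of its bases lie in annotated exons. These matches are letters only. No binding was measured in these libraries.

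The seed of the hairpin shown above pairs with the letters ACCTTCA. In the 3′ untranslated regions (UTRs) of the annotated transcripts these letters occurred in 4 of the 10 genes, namely DUSP6, SPRED1, SPRED2 and ETV4, beside 12.5% of 13583 tested protein-coding genes. Their UTRs were 2019, 5585, 2650 and 673 bases long in that order, beside a median of 1345 over those genes. The comparison made no allowance for UTR length. Of these 4 genes, 3 were higher and DUSP6 did not pass the test. Shifted sites (TCCACCT, or AGAGGTC, or CCACCTA, or GAGGTCA) were picked after values of these data had been seen. They occurred in DUSP5, SPRY4, SPRED1 and ETV4, beside 33.9% of the 13583 genes. TCCACCT, and CCACCTA but for its last letter, lie in the target and can pair with the guide. AGAGGTC and GAGGTCA do not lie in the target, and none of the 10 genes held either. DUSP4, SPRY1, SPRY2 and ETV5 held neither the seed site nor a shifted one. The part of such matches in the values was not tested.

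Relatives of the 10 genes changed in both directions. Of 10 other members of the DUSP, Sprouty, SPRED and PEA3 families, 3 were higher and 1, ETV1, was lower. These are 30% and 10%, beside 12.4% higher and 12.5% lower among all tested genes. DUSP8, a phosphatase directed at the stress kinases JNK and p38, averaged 2.81 ± 0.393 CPM with sh-Scb and 11.3 ± 1.02 CPM with sh-SAPCD2 (SD over 2 libraries each, as in the values that follow), and its log2 fold change was 2.01 (adjusted p = 0.0033). DUSP1, the immediate-early phosphatase, rose from 8.31 ± 0.541 to 19.04 ± 3.79 CPM (log2 fold change 1.20, adjusted p = 0.00964). DUSP7, a cytoplasmic ERK phosphatase, rose by a log2 fold change of 0.48 (adjusted p = 0.039), a call that was lost without sh-Scb library 1 or 2. The median of this list was 0.29, and 0.48 over the 9 genes that reached the count minimum in both groups.

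Other inhibitors of the pathway were higher where they passed the test. Of 11, 5 were higher (45.5%, beside 12.4% of all tested genes) and 0 were lower (beside 12.5%), with a median of 0.27. They were RASA3, a GTPase-activating protein (log2 fold change 0.73), IL17RD, known as Sef, an inhibitor of fibroblast growth factor signalling (0.60), LRIG1, which limits receptor tyrosine kinases (0.59), PEA15, which holds ERK in the cytoplasm (0.42), and PEBP1, the RAF kinase inhibitor protein (0.38). Each of these 5 calls was lost without sh-Scb library 1 or 2. NF1, the partner of the SPRED proteins, had a log2 fold change of 0.27 (95% interval −0.16 to 0.70, adjusted p = 0.312). It passed after a correction for GC content and length (0.34, adjusted p = 0.032) and without sh-SAPCD2 library 2 (0.47, adjusted p = 0.0182), and was 0.03 without sh-SAPCD2 library 1.

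The kinase cascade itself had no common direction. Of 22 tested genes from adaptor to kinase, 2 were higher (9.09%, beside 12.4% of all tested genes) and 4 lower (18.2%, beside 12.5%). Their median was 0.04. MAP2K1, which encodes MEK1, was higher by 0.60 on the log2 scale (adjusted p = 0.0218) and RPS6KA2, an ERK-activated kinase, by 0.72 (adjusted p = 0.00805). GAB1, a docking protein, changed by −1.40 (adjusted p = 0.00394), RPS6KA3 by −0.95 (adjusted p = 0.0057), the RAS activator SOS2 by −0.82 (adjusted p = 0.0127) and NRAS by −0.40 (adjusted p = 0.0441). Without sh-Scb library 1 the calls of MAP2K1, RPS6KA2, SOS2 and NRAS were lost, and without sh-Scb library 2 those of MAP2K1, RPS6KA2 and NRAS. HRAS (0.71), BRAF (0.45) and MAPK3 (−0.06), the last encoding ERK1, did not pass, with adjusted p-values of 0.126, 0.0911 and 0.793. HRAS was 1.07 (adjusted p = 0.00254) without sh-SAPCD2 library 1 and 0.21 without library 2. BRAF passed without either of them (0.21, adjusted p = 0.0304, and 0.65, adjusted p = 0.000875) and after the GC content and length correction (0.53, adjusted p = 0.00206).

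Receptors upstream were split. Of 16 tested receptors and docking proteins, 3 were higher (18.75%, beside 12.4% of all tested genes) and 5 lower (31.25%, beside 12.5%). Their median was −0.27, or −0.17 over the 15 that reached the count minimum in both groups. IGF1R rose from 257.0 ± 3.39 to 682.3 ± 27.5 CPM (log2 fold change 1.41, adjusted p = 0.00201), and RET, a receptor of the sympathetic lineage, from 403.2 ± 11.8 to 1026 ± 135.0 CPM (1.35, adjusted p = 0.00264). FRS2, which links fibroblast growth factor receptors to RAS, was higher by 0.67 on the log2 scale. EGFR fell from 34.8 ± 0.0712 to 10.7 ± 1.46 CPM (log2 fold change −1.70, adjusted p = 0.00284), and FGFR1 changed by −0.72. Without sh-Scb library 1 or 2 the calls of FRS2 and FGFR1 were lost. The remaining lower genes, named after their values were seen, were ERBB2, KIT and PDGFRA.

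Genes that ERK is known to induce, apart from the 10, had the highest median of the 6 lists. It was 1.05 over 15 tested genes and 0.99 over the 12 that reached the count minimum in both groups. Of the 15 genes, 7 were higher (46.7%, beside 12.4% of all tested genes) and 0 lower (beside 12.5%), all 7 among the 12. FOSL1, an AP-1 subunit, went from 0.817 ± 0.336 to 4.2 ± 0.0393 CPM (log2 fold change 2.36, adjusted p = 0.00717). The immediate-early gene IER3 (2.18), the basic leucine zipper factor MAFF (2.1), the receptor EPHA2 (1.25) and cyclin D1, CCND1 (0.80), also rose, as did TNC and JUNB, which were named after their values were seen. CCND1 stood at 434.9 ± 7.92 CPM in the sh-Scb libraries and 758.8 ± 35.0 CPM in the sh-SAPCD2 libraries. FOS (1.54, adjusted p = 0.109), EGR1 (0.59, adjusted p = 0.0695) and PHLDA1 (−0.22, adjusted p = 0.207) did not pass, and MYC was too low to be tested. FOS rested on 4 and 12 counts against 24 and 24, and its value was 0.96 without sh-Scb library 1 and 2.52 without library 2. EGR1 passed after the GC content and length correction (0.52, adjusted p = 0.0409) and without sh-SAPCD2 library 1 (0.69, adjusted p = 0.0282).

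Regulators of the ETV factors were divided. Of 15 tested, 3 were higher and 3 lower (20% each, beside 12.4% and 12.5% of all tested genes), with a median of 0.18. ATXN1, which acts with CIC, rose from 74.5 ± 1.72 to 204.2 ± 16.9 CPM (log2 fold change 1.46, adjusted p = 0.00203), while its relative ATXN1L, named after its values were seen, was among the lower genes. CIC itself did not pass (−0.32, adjusted p = 0.104), though it did after a correction for GC content and length (−0.70, adjusted p = 0.00364). Of the ubiquitin ligase parts that degrade ETV proteins, COP1 had a log2 fold change of 0.06 (adjusted p = 0.782) and DET1 was lower by a value of −0.71 (adjusted p = 0.022). The ERK-responsive ETS factors differed, with ELK1 lower (−1.07) and ELK3 (0.65) and ELK4 (0.66) higher. The calls of DET1, ELK3 and ELK4 were lost without sh-Scb library 1 or 2. Over all 6 lists, 23 of 89 tested genes were higher (25.8%, beside 12.4% of all tested genes) and 13 lower (14.6%, beside 12.5%). These lists, too, were chosen with earlier results of these data known.

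**Figure D3:**
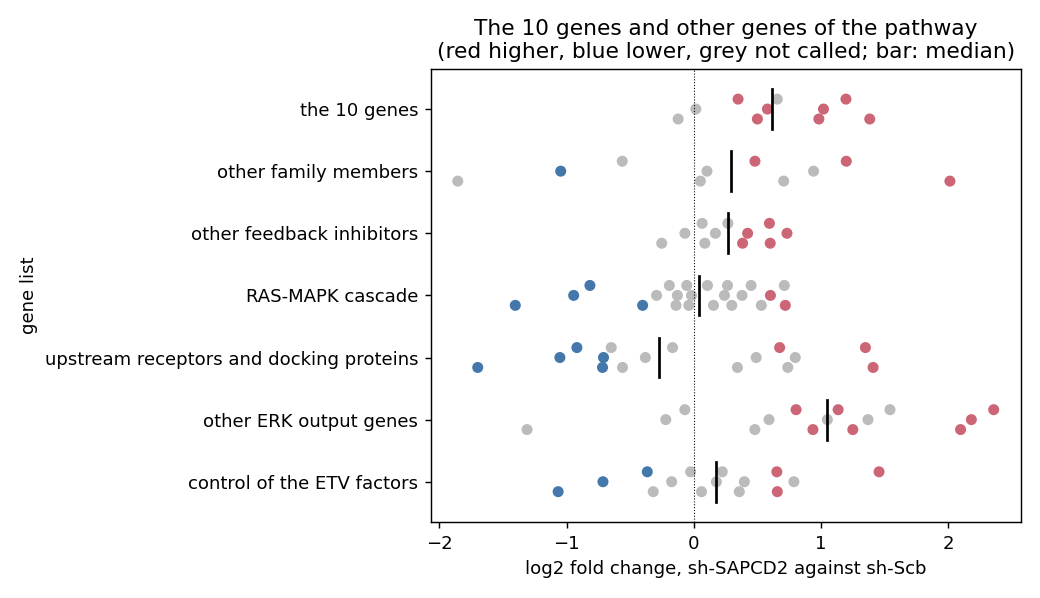
Log2 fold change, sh-SAPCD2 against sh-Scb, of the 10 genes and of the tested genes of the 6 other lists, 1 point per gene (red higher, blue lower, grey not called), with a black bar at the median of each list. The bar stands at 0.62 for the 10 genes, at 1.05 for other ERK output genes and at −0.27 for upstream receptors and docking proteins.

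Some markers of neuroblastoma cell states were lower in the sh-SAPCD2 libraries. Of 11 noradrenergic markers 6 were lower, DBH and CHGB among them, 0 were higher and 5, HAND2 and GATA3 among them, did not pass (12.5% of all tested genes were lower), with summed levels of 3681 and 3578 CPM in the sh-Scb libraries and 2716 and 3471 CPM in the sh-SAPCD2 libraries. Of 7 tested mesenchymal markers 3 (VIM, FN1 and NOTCH2) were lower and 4 (CD44, YAP1, WWTR1 and SNAI2) did not pass. The sums of the list were 1502 and 1482 CPM against 753.1 and 760.7 CPM, with PRRX1 at 0 counts throughout. VIM alone made up most of these sums, at 1197 and 1179 CPM with sh-Scb and 518.1 and 554.6 CPM with sh-SAPCD2. HAND2 and GATA3 were present in all libraries. The part of these shifts in the values of the 10 genes was not tested. Of the other cell types looked for, fibroblast markers summed to 353.6 and 372.9 CPM against 431.5 and 401.5 CPM with 0 of 5 tested markers called, although COL1A2 was at or near 0. Immune markers summed to 9.59 to 14.3 CPM, with CD3E and MS4A1 at 0 counts. CD14 was higher, and CD68 (1 and 2 counts against 11 and 12) could be tested only through the sh-SAPCD2 group. Endothelial markers were each below 1 CPM, and the 1 that could be tested, VWF (2 and 2 counts against 14 and 28), reached the count minimum in the sh-SAPCD2 group only. Of the epithelial markers (0 of 1 tested called, 3.40 to 4.65 CPM in sum) CDH1 and KRT5 were at 0 counts.

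**Figure D4:**
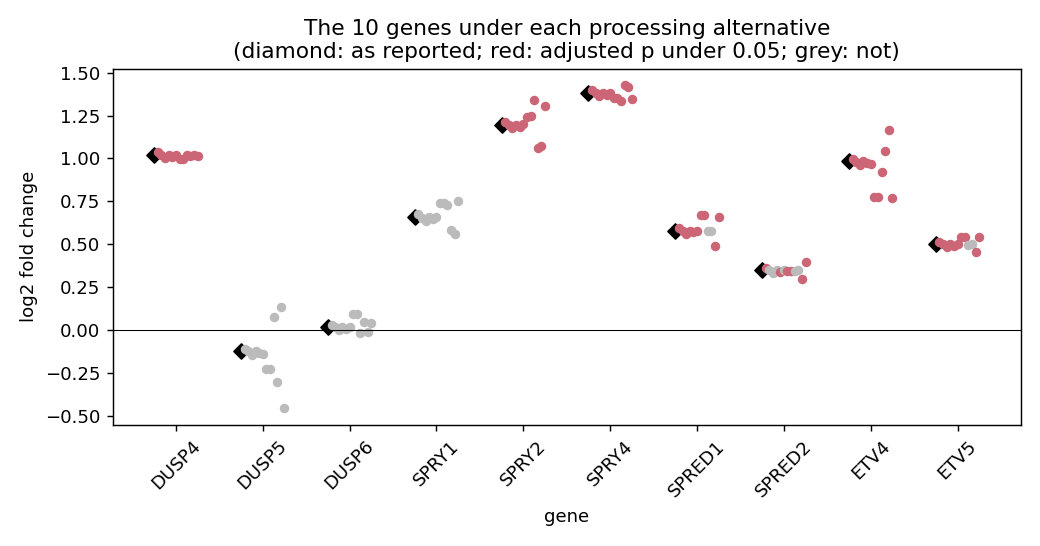
Log2 fold change of the 10 genes as reported (black diamond) and under 12 processing alternatives (points, red where the adjusted p was under 0.05, grey where it was not). DUSP4 stays between 0.995 and 1.03 and SPRY4 between 1.33 and 1.43, red throughout, while SPRED2 is red in 6 of 12 and DUSP5 and DUSP6 lie on both sides of 0.

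Across these 12 alternatives all 84 values of the 7 higher genes were above 0. DUSP4, SPRY2, SPRY4 and ETV4 passed in all 12, SPRED1 and ETV5 in 10 and SPRED2 in 6. SPRY1 had values from 0.56 to 0.75 and passed in 0.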

How the data were processed

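RNA was extracted with TRIzol and made into Illumina TruSeq libraries. The submitters' processing notes name HISAT2 2.2.0 and hg38. Per the methods, abundances were estimated with StringTie. The step from these to counts and the use of strand are not given in the sources used here. The authors deposited whole-number counts per Ensembl gene, not normalised, with 1 column per library and no column left unmapped. Of 64252 genes, 29317 had no count in any library. Symbols and positions came from GENCODE 44.

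The counts were tested with edgeR 4.0.16 (R 4.3.3) by the quasi-likelihood test, with TMM scaling, filterByExpr (minimum count 10, total 15) and Benjamini-Hochberg adjustment over the 18779 genes kept. CPM used TMM-scaled library sizes, and intervals are 95%. The biological coefficient of variation was 15.4%. The procedure was also run on simulated data with the same dispersion in both groups. That setting differs from these libraries, whose groups had unequal spread. A DEG had an adjusted p under 0.05 and an absolute log2 fold change over 1. The members and lists were chosen with earlier results of these data known. Named are the 10 genes, SAPCD2, at most 5 genes per list with the smallest p among those that passed, and a fixed set of central genes (such as CIC, COP1, FOS and NF1), of which some are not reported here.

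Alternatives were DESeq2 1.42.0, its size factors, library totals, other filters, a loess correction for GC content and length (span 0.3), a replicate block, and leaving out each library. Same-numbered libraries did not deviate together (r = −0.019), and the replicates of a group differed by more than sampling noise (chi-square per gene 4.47 and 38.6).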

Additional observations from a re-analysis of the deposited data

How the results depend on the processing

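The 7 higher genes kept their direction under all 12 alternatives, and 0 of the 10 was called lower in any. Leaving out a library moved the count of higher genes, 7 as reported, over a range of 4 to 7, the pathway genes called, 36 as reported, over 19 to 58, and all genes called, 4665 as reported, over 2328 to 8410. In each case the lowest counts came without an sh-Scb library, where the lone library was assumed to vary like the sh-SAPCD2 pair. The highest counts of pathway genes and of all genes came without an sh-SAPCD2 library, where the lone library was assumed to vary like the tighter sh-Scb pair. Without a filter on low counts, 21 pathway genes and 2261 of all genes were called, and SAPCD2 kept its fold (−0.91) with an adjusted p of 0.0749. With the GC content and length correction, 57 pathway genes and 7538 of all genes were called, and 7455 of all genes with that correction and the block together. With the replicate number as a block, 6 of the 10 genes were higher, as SPRED2 was lost (adjusted p = 0.104), and 5561 of all genes were called. The labels do not tie same-numbered libraries to a shared culture, and their deviations were uncorrelated.

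Values near 0 changed sign. DUSP6 was −0.0038 under library totals and ran from −0.0167 to 0.0444 when each library was left out. The same ranges were −0.46 to 0.13 for DUSP5, −0.145 to 0.0319 for MAPK3 and −0.0618 to 0.19 for COP1. BRAF passed in 6 of 12 alternatives, CIC in 4, NF1 in 3, and EGR1 and HRAS in 2 each, HRAS with the block (0.65, adjusted p = 0.0246). The causes of these changes were not tested. The 30 named pathway genes called as reported kept their direction in all 360 values, and 14 passed in every alternative. Besides the losses given with the lists, DUSP7, LRIG1, PEBP1, PEA15, MAP2K1, NRAS, EPHA2, ELK4 and DET1 lost their calls without a filter, and PEBP1, PEA15 and NRAS under the block. With 2 libraries per group no single sample can be judged as standing apart, and the counts of SPRY1 and DUSP5 limit what could be detected for them.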
